A study of Mus musculus with 12 samples.

Results

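The genes described here are 10 carriers that bring amino acids across the plasma membrane: Slc1a4, Slc1a5, Slc3a2, Slc6a19, Slc7a1, Slc7a5, Slc7a6, Slc16a10, Slc38a1 and Slc38a2. They were chosen by symbol, with earlier results of these data known. The probe sets that map to exactly 1 of these names were taken, which gave 23 of 45037 probe sets and 10 of 18193 genes. Where a gene has several probe sets, the one with the largest mean over the 12 arrays stands for it and the others serve as a check. The cells were suspensions of whole lymph nodes from P14-TCR mice, cultured for 4 h. Mice of both genotypes carry the P14 transgene, a T cell receptor that recognises the viral peptide gp33-41, so the peptide acts as antigen in all groups that received it.

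The 4 groups were PKD2-null cells with gp33-41 at 62.5 ng/ml, PKD2-null cells without peptide, wild-type cells with the same peptide, and wild-type cells without peptide, with 3 arrays in each. PKD2 is protein kinase D2, the product of Prkd2, a kinase activated by diacylglycerol and protein kinase C below the antigen receptor. The suspensions were not described as sorted, so each array averages over every cell type of the node. Each genotype comes from 3 mice, and each mouse gave 1 array with and 1 array without peptide; the age of the mice and the making of the null allele are not given in the sources used here. Values are log2 signals, and differences between groups are in log2 units, each with a standard error (SE) from limma. A difference was called at an adjusted p under 0.05 over all 45037 probe sets. Counts at an unadjusted p under 0.05 are given as description only, since the share of all probe sets at that level was not counted. Precision is limited by the small number of arrays.

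A resting T cell imports few amino acids, and a cell that has met antigen enlarges before it divides, which needs a large supply of them for protein synthesis. The large neutral amino acids enter through a heterodimer of a light chain, Slc7a5, and a glycoprotein heavy chain, Slc3a2, which exchanges internal glutamine for external leucine. Glutamine itself enters through Slc1a5 and the sodium-coupled carriers Slc38a1 and Slc38a2, while arginine and lysine enter through Slc7a1. Leucine and arginine inside the cell are sensed by proteins that switch on the kinase complex mTORC1.

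Prkd2 was low in every array labelled PKD2-null. Its log2 signals were 5.60, 5.47 and 5.36 in stimulated null cells against 8.16, 8.30 and 8.52 in stimulated wild-type cells, a difference of -2.85 (adjusted p = 2.5e-06). Without peptide they were 6.33, 5.87 and 5.80 in null cells and 10.17, 10.34 and 9.99 in wild-type cells, a difference of -4.17 (adjusted p = 2.7e-08). Array medians lay between 4.66 and 4.72. The 9 T cell markers measured averaged 10.44 in stimulated null, 10.50 in unstimulated null, 10.32 in stimulated wild-type and 10.57 in unstimulated wild-type cells. The 12 B cell markers averaged 9.04 and 9.66 in stimulated and unstimulated null cells, and 8.35 and 8.98 in stimulated and unstimulated wild-type cells, so the nodes held both lineages and the B cell list was higher in the null arrays in both conditions.

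Peptide raised most of these carriers in both genotypes. In null cells 6 of the 10 genes rose and 1 fell, where 24.8% of all probe sets were called (11.0% higher and 13.8% lower). In wild-type cells 7 rose and 2 fell, where 29.0% of all probe sets were called (12.8% higher and 16.2% lower). Each gene was read by its brightest probe set, whereas these shares include dim ones. With dim probe sets left out, the share called in either direction was 47.4% in null and 54.1% in wild-type cells. The median difference of the 10 genes was 0.95 in null and 1.29 in wild-type cells, and over all 18193 genes it was -0.02 in null and 0.01 in wild-type cells. Slc1a5, Slc3a2, Slc7a1, Slc7a5, Slc7a6 and Slc38a1 rose in both genotypes, Slc16a10 rose in wild-type cells, Slc6a19 fell in both and Slc38a2 fell in wild-type cells. These are averages over a mixed suspension, in which fewer cells of a type and less RNA per cell cannot be told apart. With peptide 5 of the 12 B cell markers fell and 0 rose in null cells, and 8 fell and 1 rose in wild-type cells, with median differences of -0.67 and -0.72. At an unadjusted p under 0.05, 0 of the 12 were higher and 10 were lower in null cells. The part of B cells in the carriers' differences was not tested.

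**Figure D1:**
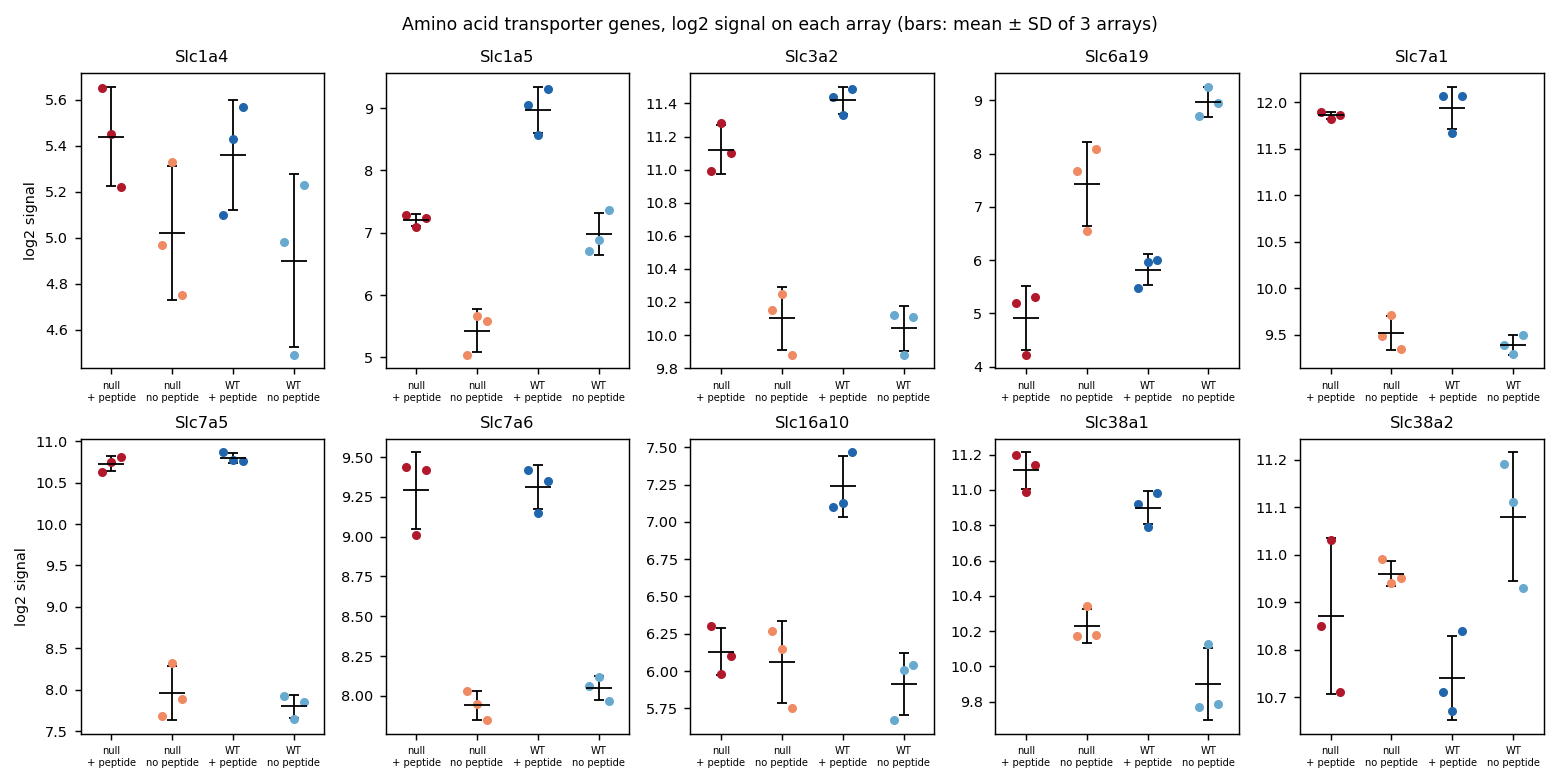
Log2 signal (y axis) of the 10 carriers on each of the 12 arrays, by group, with bars for the mean ± SD of each group. Slc7a5 and Slc7a1 with peptide lie well above their values without it in both genotypes, Slc6a19 lies below, and the stimulated null arrays of Slc1a5 and Slc16a10 lie apart from the stimulated wild-type arrays.

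The largest rise among the 10 genes was that of Slc7a5, the light chain that carries leucine, tryptophan and other large neutral amino acids. Slc7a5 had log2 signals of 10.63, 10.75 and 10.81 in stimulated null cells, against 7.68, 8.32 and 7.89 in unstimulated null cells. In wild-type cells it had 10.87, 10.77 and 10.76 with peptide, against 7.92, 7.65 and 7.85 without. The stimulated arrays of both genotypes occupied the same narrow range, more than 2 log2 units above any unstimulated array. The difference was 2.77 (SE 0.139, adjusted p = 4.2e-08), or 6.82-fold, in null cells and 3.00 (SE 0.139, adjusted p = 1.1e-08), or 7.98-fold, in wild-type cells.

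Slc3a2, the heavy chain that takes Slc7a5, Slc7a6 and other light chains to the cell surface, rose in both genotypes. With peptide it had 10.99, 11.28 and 11.10 in null cells, against 10.15, 10.25 and 9.88 without. In wild-type cells the values were 11.44, 11.33 and 11.49 with peptide and 10.12, 9.88 and 10.11 without. The ranges with and without peptide did not overlap in either genotype, and the differences were 1.03 (SE 0.115, adjusted p = 2.4e-05) in null and 1.38 (adjusted p = 1.3e-06) in wild-type cells. Slc7a6, a light chain that exchanges cationic for neutral amino acids, had 9.44, 9.01 and 9.42 in stimulated null cells against 8.03, 7.95 and 7.85 in unstimulated null cells. Its values in wild-type cells were 9.42, 9.15 and 9.35 with peptide and 8.06, 8.12 and 7.97 without. Both genotypes thus occupied about the same levels in each condition, with differences of 1.35 (SE 0.12, adjusted p = 3.6e-06) in null and 1.26 (adjusted p = 3.8e-06) in wild-type cells. A second Slc7a6 probe set rose by 1.49 in null and 1.64 in wild-type cells.

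Slc7a1, the main carrier of arginine and lysine in many cell types, had the next largest rise among the 10 genes in both genotypes. It had 11.90, 11.82 and 11.86 in stimulated null cells, against 9.49, 9.71 and 9.35 in unstimulated null cells. In wild-type cells it had 12.07, 11.67 and 12.07 with peptide, against 9.39, 9.29 and 9.50 without. The values of the genotypes overlapped in both conditions. The difference was 2.34 (SE 0.123, adjusted p = 5.8e-08), or 5.07-fold, in null cells and 2.55 (adjusted p = 1.5e-08), or 5.84-fold, in wild-type cells. A second probe set of the gene rose by 2.32 and 2.60 in null and wild-type cells, whereas the remaining one, with group means from 3.87 to 4.66 near the array medians, rose by 0.76 in null cells (adjusted p = 0.0044) and differed by 0.45 in wild-type cells (adjusted p = 0.066).

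Among the glutamine carriers, Slc1a5 and Slc38a1 rose and Slc38a2 did not. Slc1a5, an exchanger of glutamine, alanine, serine and cysteine, had 7.28, 7.09 and 7.23 in stimulated null cells against 5.04, 5.66 and 5.58 in unstimulated null cells. In wild-type cells it had 9.05, 8.56 and 9.30 with peptide and 6.70, 6.89 and 7.36 without. It rose by 1.77 (SE 0.214, adjusted p = 4.4e-05) in null and by 1.99 (adjusted p = 1.1e-05) in wild-type cells, from levels that differed between the genotypes as given further on. Slc38a1, a sodium-coupled glutamine carrier, had 11.20, 10.99 and 11.14 in stimulated null cells against 10.17, 10.34 and 10.18 in unstimulated null cells. Its wild-type values were 10.92, 10.79 and 10.98 with peptide and 9.77, 10.13 and 9.79 without. That is a rise of 0.88 (SE 0.11, adjusted p = 5.5e-05) in null and 1.00 (adjusted p = 1.3e-05) in wild-type cells, and the second probe set rose by 1.11 and 1.23. The s_at name of the main Slc38a1 probe set marks one that can bind more than 1 transcript.

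Slc38a2, a related carrier known in other settings for its induction when amino acids run short, was called with peptide in wild-type cells only, as slightly lower. It had 10.85, 11.03 and 10.71 in stimulated null cells against 10.99, 10.94 and 10.95 in unstimulated null cells, a difference of -0.10 (SE 0.101, adjusted p = 0.60). In wild-type cells it had 10.71, 10.67 and 10.84 with peptide and 11.19, 11.11 and 10.93 without, a difference of -0.33 (adjusted p = 0.023). The null ranges overlapped and the wild-type ranges did not. The wild-type call was lost when stimulated wild-type replicate 1 or 2, or unstimulated wild-type replicate 1 or 2, was left out, with adjusted p between 0.067 and 0.1. The second Slc38a2 probe set differed by -0.32 in null cells (adjusted p = 0.14) and fell by 0.59 in wild-type cells (adjusted p = 0.0067), without overlap in either genotype. The remaining one differed by -0.01 in null and by 0.02 in wild-type cells.

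Slc1a4, a carrier of alanine, serine, cysteine and threonine, had a low signal, with 5.65, 5.45 and 5.22 in stimulated null cells against 4.97, 5.33 and 4.75 in unstimulated null cells. It had 5.10, 5.43 and 5.57 in stimulated and 4.98, 4.49 and 5.23 in unstimulated wild-type cells, so the ranges overlapped in both genotypes. The differences of 0.43 (SE 0.201, adjusted p = 0.17) in null and 0.47 (adjusted p = 0.11) in wild-type cells were not called. With the mouse as a block the wild-type difference had an adjusted p of 0.047, and with 1 array left out it ranged from 0.26 (adjusted p = 0.41, without unstimulated wild-type replicate 2) to 0.63 (adjusted p = 0.041, without unstimulated wild-type replicate 3). A second Slc1a4 probe set rose by 0.39 (adjusted p = 0.018) in null and 0.31 (adjusted p = 0.048) in wild-type cells. The remaining one, 1423550_at, differed by 0.27 (adjusted p = 0.3) in null and rose by 0.47 (adjusted p = 0.047) in wild-type cells. The mean of all Slc1a4 probe sets was called in both genotypes, at 0.36 (adjusted p = 0.012) in null and 0.42 (adjusted p = 0.0046) in wild-type cells.

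Slc6a19, a sodium-coupled carrier of neutral amino acids best known from the brush border of kidney and intestine, fell in both genotypes. Its log2 signals were 5.19, 4.22 and 5.31 in stimulated null cells against 7.67, 6.54 and 8.08 in unstimulated null cells. In wild-type cells they were 5.48, 5.97 and 6.00 with peptide and 8.70, 9.26 and 8.95 without. With peptide the null signals were thus close to the array medians. The gene fell by 2.52 (SE 0.361, adjusted p = 0.00017) in null and by 3.15 (adjusted p = 1.9e-05) in wild-type cells, and its second probe set fell by 2.31 and 3.34.

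Slc16a10, which carries the aromatic amino acids tryptophan, tyrosine and phenylalanine without a coupled ion, was called with peptide in wild-type cells and not in null cells. In null cells it had 6.30, 5.98 and 6.10 with peptide and 6.27, 6.15 and 5.75 without, and these overlapped, with a difference of 0.07 (95% confidence interval -0.27 to 0.41, adjusted p = 0.83). In wild-type cells it had 7.10, 7.13 and 7.47 with peptide, against 5.67, 6.01 and 6.04 without, a rise of 1.33 (SE 0.157, adjusted p = 2.4e-05), or 2.51-fold. A second Slc16a10 probe set differed by 0.38 in null cells (95% interval 0.01 to 0.76, adjusted p = 0.14), where it was not called. In wild-type cells it rose by 1.04 (adjusted p = 0.00042).

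**Figure D2:**
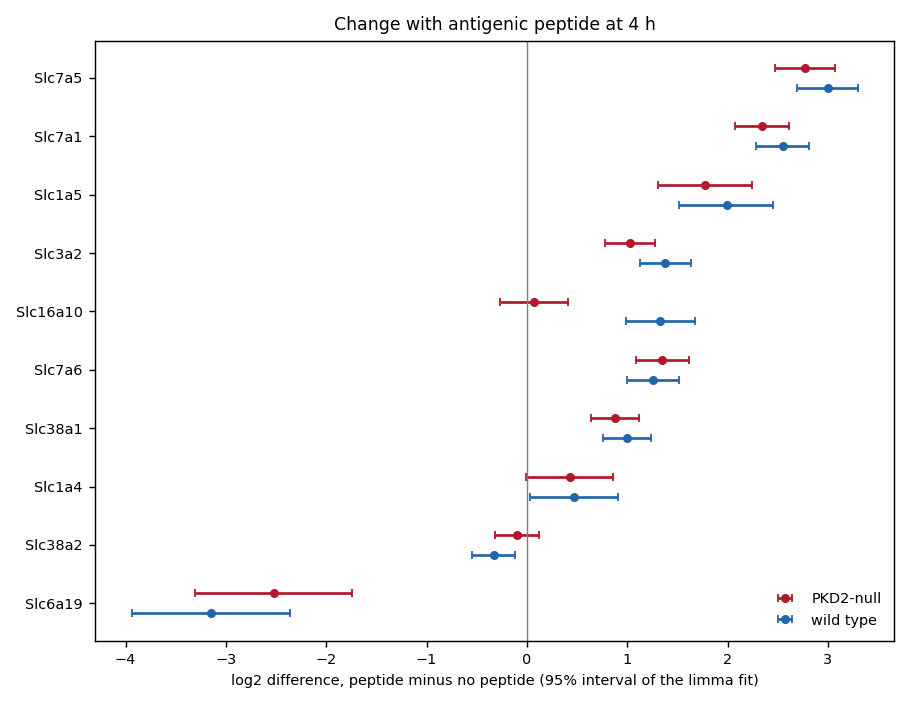
Difference between stimulated and unstimulated cells (log2, with the 95% confidence interval of the limma fit) for the 10 carriers in PKD2-null and in wild-type cells. Slc7a5 and Slc7a1 lie at 2.34 to 3.00, Slc6a19 lies at -2.52 and -3.15, and Slc16a10 lies at 0.07 in null and 1.33 in wild-type cells.

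The promoter sequences of 3 of these genes are shown because they carry the motif matches found (Slc1a4 and Slc7a1) or because the gene's response differed most between the genotypes (Slc16a10). RefSeq promoters, 250 bases before to 50 bases after the start of the gene in build GRCm38.p6, were available for 7 of the 10 genes, as 9 sequences. They were searched on both strands for the E-box that MYC binds (CACGTG), the core of the element bound by ATF4 (TGATGCA), the AP-1 element (TGANTCA) and the core bound by NFAT (GGAAAA). Each sequence is given 5′ to 3′ on the strand of its gene, with matches in capitals, from chr11:20332664-20332963, chr5:148399855-148400154 and chr10:40142205-40142504, each on the minus strand.
Slc1a4: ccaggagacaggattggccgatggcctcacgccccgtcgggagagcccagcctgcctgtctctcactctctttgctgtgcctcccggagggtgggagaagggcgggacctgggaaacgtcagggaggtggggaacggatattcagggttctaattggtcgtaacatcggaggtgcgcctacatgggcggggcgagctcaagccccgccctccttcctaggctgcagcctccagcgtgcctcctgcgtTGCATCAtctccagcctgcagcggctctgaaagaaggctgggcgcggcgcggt
Slc7a1: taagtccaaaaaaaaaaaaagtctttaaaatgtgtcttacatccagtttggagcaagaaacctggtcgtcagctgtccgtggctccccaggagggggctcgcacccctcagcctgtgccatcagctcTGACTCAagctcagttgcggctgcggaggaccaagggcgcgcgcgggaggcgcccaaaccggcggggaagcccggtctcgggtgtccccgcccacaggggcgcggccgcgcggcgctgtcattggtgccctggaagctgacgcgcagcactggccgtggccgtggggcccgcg
Slc16a10: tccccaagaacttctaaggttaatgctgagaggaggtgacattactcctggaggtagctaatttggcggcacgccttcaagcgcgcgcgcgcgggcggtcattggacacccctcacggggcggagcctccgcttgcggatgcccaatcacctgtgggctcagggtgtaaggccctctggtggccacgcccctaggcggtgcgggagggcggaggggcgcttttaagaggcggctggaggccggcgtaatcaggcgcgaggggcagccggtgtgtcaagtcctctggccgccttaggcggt

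The Slc1a4 promoter held the ATF4 core, on the reverse strand and beginning 3 bases before the start, and this motif occurred in 3.15% of 32851 promoters. An AP-1 element began 123 bases before 1 of the starts of Slc7a1, a motif present in 7.81% of promoters. The E-box, present in 7.15% of promoters, and the NFAT core, present in 23.4%, were in none of the windows of the 7 genes. The matches did not overlap each other, and a match is a description of the letters in these windows.

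Between the genotypes, 8 of the 10 carriers were called in neither condition. Slc1a5 was lower in null cells with and without peptide, and Slc16a10 was lower in null cells with peptide. Without peptide 0 of the 10 genes was higher and 1 was lower by limma, where 0.0377% of all probe sets were called (0.0155% higher and 0.0222% lower; 0.0977% with the mouse as a block). At an unadjusted p under 0.05, 1 gene was higher and 2 were lower. With peptide 0 was higher and 2 were lower, where 1.18% of all probe sets were called (0.799% higher and 0.380% lower). At an unadjusted p under 0.05 these counts were 0 and 4. The shares given are at the adjusted p, and none was counted at the unadjusted p. Without peptide the values of the 3 null and 3 wild-type arrays did not overlap for 3 of the 10 genes (13.8% of all probe sets), 1 higher (7.39%) and 2 lower (6.41%). With peptide they did not overlap for 5 of the 10 (20.4%), 1 higher (9.42%) and 4 lower (11.0%).

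For Slc1a5 the values given above put every null array below every wild-type array of the same condition on its main probe set, 1416629_at. The difference was -1.56 (SE 0.214, adjusted p = 0.027) without peptide, 2.95-fold lower in null cells, and -1.77 (SE 0.214, adjusted p = 0.0037) with peptide, 3.42-fold lower. Without peptide the call was lost, with adjusted p between 0.05 and 0.096 and differences between -1.36 and -1.70, when 1 of 6 arrays was left out: stimulated null replicate 1, unstimulated null replicate 1 or 3, or any unstimulated wild-type replicate. It was also lost with only the arrays of the groups compared (adjusted p = 0.1).

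The other Slc1a5 probe set, 1440379_at, did not show the difference between genotypes. With peptide it had 7.65, 6.65 and 7.28 in null cells and 7.48, 6.28 and 6.56 in wild-type cells, a difference of 0.42 (SE 0.283, 95% interval -0.19 to 1.04, adjusted p = 0.51). Without peptide it had 5.54, 5.41 and 5.32 in null cells and 5.45, 5.62 and 5.81 in wild-type cells, a difference of -0.21 (95% interval -0.82 to 0.41, adjusted p = 0.89). The ranges overlapped in both conditions, and the signs with peptide were opposite on the 2 probe sets. Both probe sets rose with peptide, 1440379_at by 1.77 (adjusted p = 4e-04) in null and by 1.14 (adjusted p = 0.0075) in wild-type cells. The lower Slc1a5 signal in null cells rests on 1 of its 2 probe sets, and the mean of both gave -0.67 (adjusted p = 0.12) with peptide and -0.88 (adjusted p = 0.15) without.

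**Figure D3:**
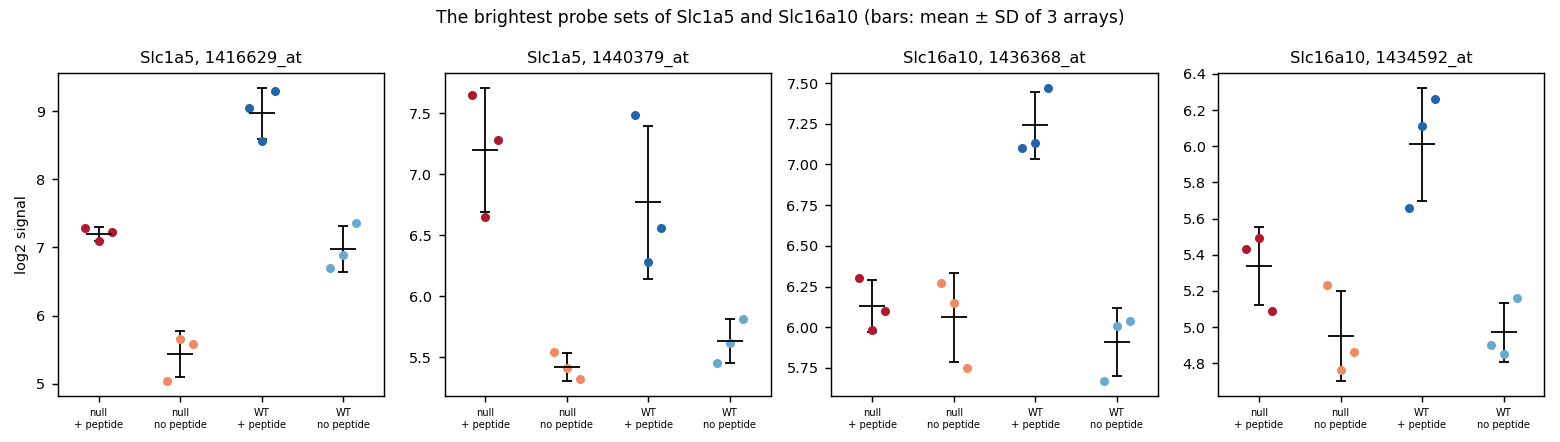
Log2 signal (y axis) on each array for 2 probe sets each of Slc1a5 and Slc16a10, by group, with bars for the mean ± SD of 3 arrays. On 1416629_at the null arrays of Slc1a5 lie below the wild-type arrays of the same condition, on 1440379_at they overlap, and both Slc16a10 probe sets are lower in stimulated null than in stimulated wild-type cells.

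Slc1a5 lies near Prkd2, the gene made null, on chromosome 7, and among genes with a probe set only Strn4, a striatin family scaffold protein, lies between them. The 10 such genes on either side of Prkd2 were read as well, in the gene order of GRCm38.p6. Slc1a5 was the only one of the 20 genes called in a genotype comparison. Others differed at an unadjusted p under 0.05, a level at which the share of all probe sets was not counted. Without peptide Sae1 and Tmem160 were higher in null cells at that level, and Strn4, Gng8, Ptgir and Hif3a were lower. With peptide Sae1, Zc3h4 and Tmem160 were higher, and Ppp5c and Hif3a were lower. The highest values were those of Sae1, 0.60 (adjusted p = 0.25) without peptide and 0.46 (adjusted p = 0.18) with peptide. The median difference of the 20 genes was -0.11 with peptide and -0.12 without. Strn4 itself differed by -0.15 with peptide and by -0.37 (adjusted p = 0.19) without. The lowest values other than that of Slc1a5 were -0.65 for Hif3a (adjusted p = 0.2) with peptide and -0.89 for Ptgir (adjusted p = 0.16) without peptide, neither of them called.

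**Figure D4:**
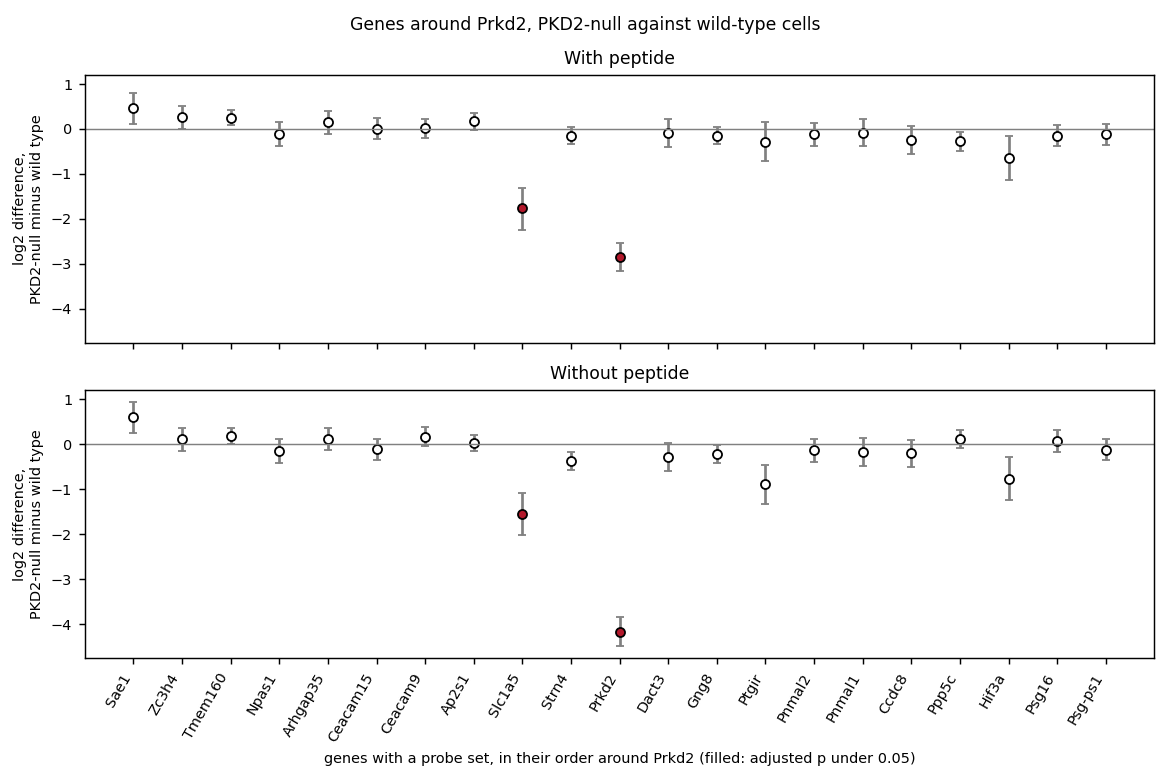
Difference between PKD2-null and wild-type cells (log2) for Prkd2 and the 10 genes with a probe set on either side of it, in gene order, with the 95% confidence interval, with and without peptide, and called genes filled. Prkd2 and Slc1a5 lie far below 0 in both conditions, and the other genes lie between -0.89 and 0.60.

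Slc16a10 was called between the genotypes with peptide and not without. With peptide all 3 null arrays lay below all 3 wild-type arrays, with a difference of -1.11 (SE 0.157, adjusted p = 0.0085), 2.16-fold lower in null cells. Without peptide the difference was 0.15 (95% interval -0.19 to 0.49, adjusted p = 0.84). The difference of the stimulation effects was -1.26 (SE 0.222, 95% interval -1.74 to -0.78), with an adjusted p of 0.25, and with the mouse as a block its SE was 0.162 and its adjusted p 0.043. The second Slc16a10 probe set, 1434592_at, had 5.43, 5.49 and 5.09 in stimulated null cells against 5.66, 6.11 and 6.26 in stimulated wild-type cells. It had the same sign with a smaller size, -0.67 (adjusted p = 0.092), and its difference of effects was -0.65 (adjusted p = 0.64). The other 2 probe sets of the gene lay below the array median on every array.

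Slc6a19 was lower in null cells without overlap in both conditions, but was not called. The difference was -0.91 (SE 0.361, adjusted p = 0.25) with peptide and -1.54 (adjusted p = 0.19) without. The second Slc6a19 probe set gave -0.68 (adjusted p = 0.4) with peptide and -1.71 (adjusted p = 0.14) without. Its mean of 4.37 in stimulated null cells was below the array medians. On its main probe set Slc38a1 was higher on each null array than on any wild-type array of its condition, by 0.21 (adjusted p = 0.38) with peptide and 0.33 (adjusted p = 0.39) without, and was not called either. Its second probe set differed by 0.09 (adjusted p = 0.71) with peptide and by 0.21 (adjusted p = 0.59) without, and its ranges without peptide overlapped. Slc3a2 differed by -0.30 (SE 0.115, adjusted p = 0.24) with peptide, without overlap. The 95% intervals of the difference with peptide were -0.37 to 0.23 for Slc7a5, -0.35 to 0.19 for Slc7a1 and -0.28 to 0.24 for Slc7a6. Beside these differences stands that of the B cell list, whose average ranged from 8.79 to 9.50 in stimulated null against 8.28 to 8.48 in stimulated wild-type cells, and from 9.40 to 10.12 in unstimulated null against 8.94 to 9.03 in unstimulated wild-type cells. With peptide 3 of the 12 B cell markers were called higher in null cells, where 0.799% of all probe sets were. Without peptide 0 of the 12 were called higher, where 0.0155% of all probe sets were. At an unadjusted p under 0.05, 8 of the 12 B cell markers were higher in null cells with peptide and 11 without. The share of all probe sets at that level was not counted. The part of the B cell markers in the genotype differences was not tested.

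The size of the peptide response was compared between the genotypes as the difference of the effects in null and wild-type cells. By limma 0 of the 10 carriers was called, where 0.00222% of all probe sets were called. With the mouse as a block 1 of the 10 was called, Slc16a10, and 0.0955% of all probe sets. At an unadjusted p under 0.05 there were 2, Slc3a2 and Slc16a10, and both had a smaller difference with peptide in null cells, which for Slc16a10 was not called there. The median of the 10 genes was -0.16, and that of all genes was -0.02. The difference of effects was -0.36 (SE 0.163, 95% interval -0.71 to 0, adjusted p = 0.70) for Slc3a2, -0.23 (95% interval -0.65 to 0.20) for Slc7a5, -0.20 (-0.58 to 0.17) for Slc7a1 and -0.21 (-0.87 to 0.44) for Slc1a5. Each of these intervals includes 0 or ends there, and those of Slc7a5, Slc7a1 and Slc1a5 allow a smaller or a larger response in null cells. On the second Slc1a5 probe set the difference of effects was 0.63 (95% interval -0.24 to 1.5, adjusted p = 0.79).

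Other carriers and the amino acid pathway were read from lists that hold none of the 10 genes. The 10 genes and the lists were chosen with earlier results of these data known, so a contrast between them may reflect that choice. Of 43 measured amino acid carriers outside the 10, 0 rose and 6 fell with peptide in each genotype by limma. Of all probe sets 13.8% were lower in null and 16.2% in wild-type cells, so the share of these carriers that fell was near that of all probe sets. At an unadjusted p under 0.05, 1 was higher in null and 2 in wild-type cells, with 6 lower in each. The median difference was 0.04 in null and 0.03 in wild-type cells. Slc43a2, a carrier of large neutral amino acids that needs no partner chain, fell by 1.87 in null and by 2.34 in wild-type cells. Slc38a6 fell as well, as did 4 carriers of the lysosome. Ctns, the cystine exporter, fell by 0.60 in null and by 0.95 in wild-type cells, and Slc38a9, which senses arginine, fell by 0.70 and 0.74. Slc66a1, a carrier of cationic amino acids, fell by 0.55 and 0.51, and Slc36a1, named to complete the 6, fell by 0.49 and 0.52. Of the 43, 21 lay below the array median on all arrays. Slc38a6 was higher in stimulated null than in stimulated wild-type cells by 0.61 (SE 0.0872, adjusted p = 0.0088), its fall having been 0.54 in null and 1.05 in wild-type cells.

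Of 29 measured genes of amino acid sensing by mTORC1, 7 rose and 8 fell in null cells, where 24.8% of all probe sets were called in either direction. In wild-type cells, where 29.0% of all probe sets were called, 9 rose and 6 fell. Of the 29, 27 lay above the array median on all arrays. With dim probe sets left out, the share of probe sets called was 47.4% in null and 54.1% in wild-type cells. Sesn1, a leucine-binding family member that restrains mTORC1, fell by 1.63 in null and 2.07 in wild-type cells, and Castor2, of the arginine sensor family, fell by 1.46 and 1.59. Fnip2, a partner of folliculin, rose by 0.97 and 1.70, while Nprl2, a subunit of the GATOR1 complex that restrains mTORC1, fell by 1.19 and 1.32. Lamtor2, which helps to hold mTORC1 at the lysosome, fell by 1.17 in null cells and 1.18 in wild-type cells. The median of the 29 was -0.10 in both genotypes. Between the genotypes 0 of the 29 was called by limma. At an unadjusted p under 0.05, 3 were higher and 2 lower in null cells with peptide, and 3 were higher and 0 lower without.

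Of 8 measured regulators of carrier transcription, 4 rose in each genotype, where 11.0% of all probe sets were higher in null and 12.8% in wild-type cells, and 2 fell in wild-type cells. Myc, whose product is known to be needed for carrier induction in activated T cells, rose by 3.60 in null and 4.02 in wild-type cells. Irf4 rose by 3.15 and 3.87, Rel by 1.47 and 1.89, and Atf4, the factor of the amino acid shortage response, by 0.61 and 0.62. Trib3, a target of ATF4, differed by -0.69 in null cells (adjusted p = 0.055) and fell by 0.98 in wild-type cells. Ddit3, which encodes another factor of that response, differed by -0.28 in null cells, where it was not called, and fell by 0.84 in wild-type cells. It was higher in stimulated null than in stimulated wild-type cells by 0.53 (adjusted p = 0.032). The median of the 8 was 0.42 in null and 0.48 in wild-type cells, and all 8 lay above the array median on all arrays. With dim probe sets left out, 47.4% of probe sets were called in either direction in null and 54.1% in wild-type cells.

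Of 16 measured genes through which amino acids enter metabolism, 1 rose and 3 fell in each genotype, a share called that was close to the 24.8% of all probe sets in null and not above the 29.0% in wild-type cells. Bcat1, the cytosolic enzyme that transaminates branched-chain amino acids such as the leucine carried by Slc7a5, rose by 3.89 in null and 5.21 in wild-type cells. Glul, which makes glutamine, fell by 0.65 and 0.67, and Glud1, which takes glutamate into the citric acid cycle, fell by 0.52 and 0.51. The other fall was that of Ido2 in null cells (-0.28) and of Gpt in wild-type cells (-0.44). The median of the 16 was -0.15 in null and 0.15 in wild-type cells.

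**Figure D5:**
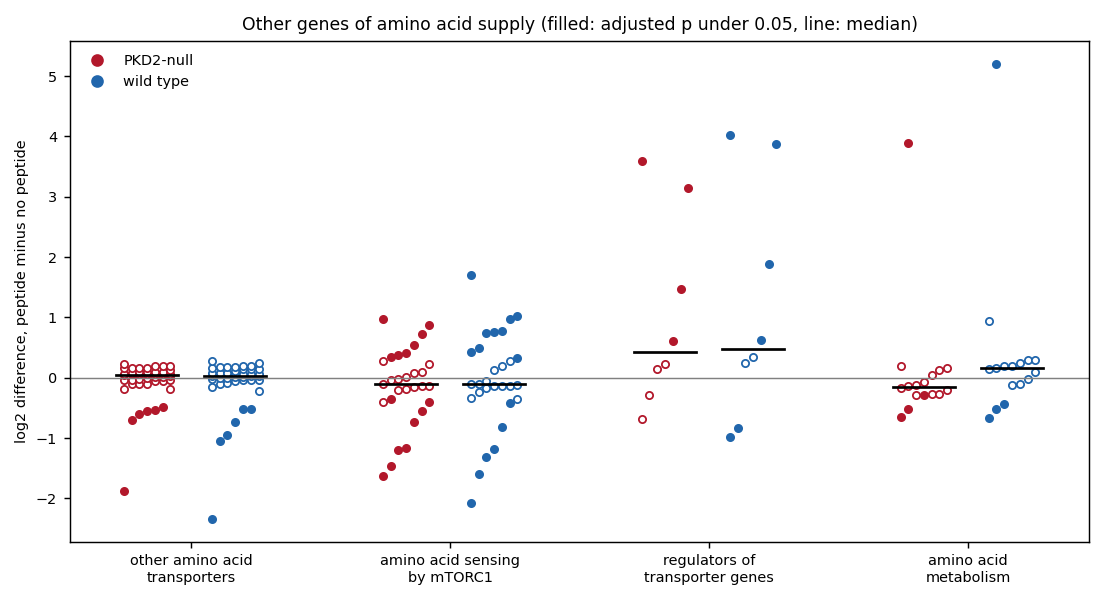
Difference between stimulated and unstimulated cells (log2, y axis) for each gene of the 4 lists of amino acid supply, in PKD2-null and in wild-type cells, with called genes filled and a line at the median of each list. Most of the 43 other amino acid carriers lie near 0, with medians of 0.04 in null and 0.03 in wild-type cells, and Bcat1, Myc and Irf4 lie highest.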

How the data were processed

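Expression was measured on 12 Affymetrix arrays, 1 per mouse and condition. The deposited log2 values were used as the authors gave them. They were made with Affymetrix Expression Console 1.1, per the submitters' processing notes, and the sources used here do not give the normalization. Values ran from 2.43 to 15.07, and once sorted, the values of 2 arrays were never more than 0.253 apart, so nothing was normalized again.

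With limma 3.58.1 (R 4.3.3), 4 group means were fitted to each of 45037 probe sets, after 64 controls were left out, and the variances were moderated (residual degrees of freedom 8, prior 4.18). All 5 comparisons were two-sided, with Benjamini-Hochberg adjustment over all probe sets. The fit was tested on simulated data with independent noise on each array, so the pairing of arrays by mouse was not part of that test. Probe sets were named from the platform annotation: 34945 had 1 symbol, and 932 had several and named no gene. The members and lists were chosen with earlier results of these data known. From each list up to 4 called genes per comparison with the largest change were named, and for Prkd2 the 10 genes on either side were read.

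The labels' animal identifiers pair the 2 arrays of a mouse. Deviations from the group means of a mouse's 2 arrays correlated at 0.116 to 0.577 over 6 pairs, against -0.399 to 0.129 over 12 pairs of different mice. The main fit held no term for the mouse, so its SEs and adjusted p-values do not use this pairing. In an alternative fit the mouse was a fixed block for the peptide comparisons and a random one (duplicateCorrelation) between genotypes.

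Further alternatives were median centring, quantile normalization, an intensity trend, leaving out dim probe sets, fewer arrays, other probe sets and leaving out each array.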

Additional observations from a re-analysis of the deposited data

How the results depend on the processing

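Over the 10 genes and 5 comparisons, 15 of 19 calls were kept under every alternative run, and 28 of the 31 differences that were not called stayed so. Of the single values recomputed, 1 changed sign after being called: Slc1a5 between genotypes with peptide, at 0.42 (adjusted p = 0.51) on its second probe set, an alternative chosen after seeing the data. Leaving out dim probe sets, and so testing fewer, raised the share called with peptide to 47.4% in null and 54.1% in wild-type cells, the share between genotypes to 2.84% with and 0.0628% without peptide, and put the share for the difference of effects at 0%. For the remaining changes the cause was not tested. Genes lower with peptide in wild-type cells numbered 1 with the mean of all probe sets of a gene and 1 to 2 when an array was left out. Genes lower in null cells with peptide numbered 1 with that mean and 0 with second probe sets. Without peptide they numbered 0 with that mean, with second probe sets and with only the arrays compared, and 0 to 1 when an array was left out. The share of probe sets called between genotypes without peptide was 0.0977% with the mouse as a replicate block, 0.0711% after quantile normalization, 0.127% with an intensity trend, 0.00666% with only the arrays compared and 0.00666% to 0.0733% when an array was left out. With peptide it was 0.202% with only the arrays compared and 0.167% to 1.59% when an array was left out. For the difference of effects, the mouse block gave 1 gene lower (Slc16a10) and 0.0955% of probe sets, centring gave 0%, the trend 0.00888%, and leaving out an array 0% to 0.0289%. Beside Slc16a10 here and Slc1a4 in wild-type cells, the block changed no call of the 10 genes. With 3 arrays per group, differences of low-signal probe sets near the array medians are the least precise.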

Other observations

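For 3 of the carriers, the genes whose log2 values followed them most closely over the 12 arrays were read from 11512 genes. These coefficients describe arrays that share the same 4 groups, so a common response to peptide or genotype enters each of them. Slc7a5 was followed by Nop58, a protein of the small nucleolar ribonucleoproteins that guide ribosomal RNA methylation (Pearson r = 0.998), Timm23, a channel for protein import into mitochondria (0.998), and Tnfsf14, a TNF family ligand (0.997). Slc6a19 was followed by Cd7, a lymphocyte surface protein (r = 0.979), Dntt, the terminal transferase of antigen receptor rearrangement, on an x_at probe set that can bind other transcripts (0.975), and Fxyd7, a modulator of the sodium pump (0.973). Slc1a5, read by its probe set 1416629_at, was followed by Rab27a, a GTPase of granule secretion (r = 0.963), Myo10 (0.959) and Parp8 (0.957).

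Of 3 erythroid markers 0 was called between genotypes by limma, with 2 lower in null cells at an unadjusted p under 0.05 with peptide and 1 without. Their average was 4.09 in stimulated null against 5.00 in stimulated wild-type cells, and 4.12 in unstimulated null against 5.15 in unstimulated wild-type cells, with 2 of the 3 markers, Hba-a1 and Slc4a1, below the array median on all arrays. Alas2 alone carried these averages, with means of 4.82 in stimulated null against 7.25 in stimulated wild-type cells, and 4.99 in unstimulated null against 7.81 in unstimulated wild-type cells. Plasma cell markers averaged 9.07 in stimulated null against 8.66 in stimulated wild-type cells, and 9.08 in unstimulated null against 8.40 in unstimulated wild-type cells. That average includes Irf4, with means of 12.2 with and 9.05 without peptide in null cells, and 12.6 and 8.73 in wild-type cells. Sdc1, Jchain, Mzb1 and Xbp1 had lower means with peptide in both genotypes. Prdm1 had a lower mean with peptide in null and a higher one in wild-type cells. Averages of myeloid and dendritic cell markers were 6.45 in stimulated null against 6.42 in stimulated wild-type cells, and 6.76 in unstimulated null against 6.52 in unstimulated wild-type cells. The NK cell list averaged 7.56 in stimulated null against 7.78 in stimulated wild-type cells, and 7.38 in unstimulated null against 7.61 in unstimulated wild-type cells. Of its genes, Ncr1 lay below the array median on all arrays. Nkg7 and Eomes had higher and Klrd1 and Gzma lower means with peptide in both genotypes, so the list did not move as a whole. Stroma and endothelium markers averaged 4.46 to 4.62 over the 4 groups.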
